A study of Mus musculus with 42 samples.

Results

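A set of 9 genes that cells switch on in response to interferon was followed in 3 tissues (liver, quadriceps muscle and visceral fat) of Akt1+/- mice and of wild-type (Wt) mice. The genes were Irf7, Stat2, Isg15, Usp18, Ifit1, Ifit2, Ifit3, Oasl2 and Rsad2 and they were found by name in the gene column of the scanner files. They made up 9 of the 19899 genes tested in at least 1 tissue and 12 of the 41174 probes that were not control spots. All mice were female and of the C57BL/6 strain. The Akt1+/- mice carry 1 deleted copy of Akt1, a kinase of the insulin and insulin-like growth factor pathway, in every cell type, and the controls were their wild-type littermates. Each tissue gave 14 one-colour arrays, 3 of each genotype at 8 weeks and 4 of each genotype at 35 weeks by the labels (the methods of the study give an older second age and fewer mice). No mouse received interferon or an infection by the labels or methods, so the levels are those of untreated mice. The labels do not say that each array came from its own mouse, and p-values therefore measure the spread between these arrays.

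Type I interferons bind a receptor pair at the cell surface, and the kinases attached to it phosphorylate STAT2. With IRF9 it forms part of a complex that binds the interferon-stimulated response element in the promoters of target genes. The targets include enzymes and RNA-binding proteins that slow viral growth, the transcription factor IRF7, which raises the output of interferon itself, and the protease USP18, which damps the receptor. Many of these genes are also expressed at a low level without infection, and liver and fat hold resident macrophages and parenchymal cells that can respond to interferon.

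The promoters of these genes were read to show where the response element lies. The search was for its core, GAAANNGAAA on either strand, in the 250 bases before each start in RefSeq (GRCm38.p6). Of the 8 genes with a window in the table, Isg15, Ifit1, Ifit3, Rsad2 and Stat2 held at least 1 match, while Irf7, Ifit2 and Oasl2 held none, and Usp18 had no window. The core was found in 2.98% of all 32851 windows and in 3.46% of the 27025 genes. Matches overlapped in the Isg15 promoter, where 3 started 78, 72 and 66 bases before the start. In Ifit1 they began 104 and 85 bases before the start, in Ifit3 156 and 122, in Rsad2 120 and in Stat2 222. These 5 windows are shown because they hold the sequence that the named complex recognises, with each match in capitals and read 5′ to 3′ on the strand of the gene.
Isg15, chr4:156200850-156200921, minus strand: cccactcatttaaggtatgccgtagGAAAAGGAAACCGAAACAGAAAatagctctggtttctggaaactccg
Ifit1, chr19:34640760-34640838, plus strand: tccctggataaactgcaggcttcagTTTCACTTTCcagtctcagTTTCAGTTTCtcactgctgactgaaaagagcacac
Ifit3, chr19:34583348-34583441, plus strand: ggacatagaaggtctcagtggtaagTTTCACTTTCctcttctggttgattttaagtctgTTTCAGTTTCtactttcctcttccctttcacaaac
Rsad2, chr12:26456538-26456597, minus strand: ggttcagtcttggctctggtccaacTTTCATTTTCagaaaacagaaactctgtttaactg
Stat2, chr10:128270251-128270310, plus strand: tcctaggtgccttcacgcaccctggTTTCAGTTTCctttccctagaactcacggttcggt
Ifit1 and Ifit3 held the same pair of matched runs, in the same order and on the strand opposite to the search letters, and Stat2 held the second of them. Of other type I interferon-stimulated genes on a list drawn up for this work, 14 of 42 with a window held the core, and of genes known to respond to interferon gamma 9 of 16 did. The palindrome TTCNNNGAA, the core of the gamma-activated site, was found in Ifit2 alone among the 8 genes, and in 7.02% of all windows. No match says only that these letters are absent from this window.

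Each gene is given here by its brightest probe, which was well above background on all 42 arrays. In mm8, the build of the probe coordinates, these probes lay at chr7:141116085-141116435 for Irf7, chr10:127695074-127695133 for Stat2, chr6:121236114-121236173 for Usp18, chr5:115173158-115173217 for Oasl2 and chr12:27029262-27029321 for Rsad2. The 3 Ifit probes lay close together on chromosome 19, at chr19:34641751-34641810 for Ifit2, chr19:34654612-34654671 for Ifit3 and chr19:34715303-34715362 for Ifit1. The Isg15 probe is placed at chr17:45870420-45870479 in the scanner files, while RefSeq has the gene on chromosome 4, so its printed position is in doubt. Ifit3 has a near-identical neighbour, Ifit3b, and its probe may read both. No mm8 annotation was used here, so exon and UTR positions of the probes are not given.

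Levels are log2 of the processed intensity minus the 75th percentile of the array, so that 0 is the level of the 75th percentile. On the 42 arrays, 57.2 to 69.2% of probes passed the scanner's test of being well above background, and saturated spots numbered 0. Both Akt1 probes were lower on every Akt1+/- array than on every Wt array of the same tissue and age, in 12 of 12 comparisons, with log2 differences over both ages of -0.67, -0.58 and -0.55 in liver, muscle and fat (limma adjusted p = 0.00255, 0.0744 and 0.00646). Whether these probes lie in the deleted part of Akt1 is not known. Mean levels of the hepatocyte, muscle fibre and adipocyte markers were 6.95 to 7.58, 9.11 to 9.53 and 6.50 to 7.57 in their own tissues and at most 2.49 in the others. Genotypes lay on separate slides in every tissue at 35 weeks and in liver at 8 weeks. In fat at 35 weeks they were also scanned on different days, and scan day cannot be told apart from age within a tissue. At 8 weeks Wt fat replicates 1 and 2 and Akt1+/- liver replicate 2 were scanned on another day than the rest of their tissue's arrays at that age.

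Liver had the highest level of 7 of the 9 genes and muscle the lowest level of 8. Over all 14 arrays of a tissue, Irf7 lay between 0.14 and 1.34 in liver, between -1.11 and -0.31 in fat and between -3.29 and -1.91 in muscle. Stat2, a transcription factor of the signalling complex, lay between 1.53 and 2.47 in liver, 0.43 and 1.24 in fat and -1.80 and -0.88 in muscle. Usp18 ranged from 0.74 to 2.27 in liver, -0.60 to 0.21 in fat and -2.44 to -1.12 in muscle. For these 3 genes no array of one tissue reached the range of the next. The share of all genes that separate the tissues in this way is not given here. Most genes differed between tissues, with 85.8 to 87.6% called either way between 2 tissues, so such separation may be common. The ubiquitin-like modifier Isg15 kept the same order, but its liver range of 0.46 to 2.19 overlapped the fat range of -0.71 to 0.68, and the latter overlapped the muscle range of -2.61 to -0.46.

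The genes for antiviral effectors did not all follow that order. Ifit1, an RNA-binding protein of the tetratricopeptide family, ranged from -2.10 to -0.39 in liver, -2.39 to -1.23 in fat and -4.87 to -2.68 in muscle. Rsad2, which makes a nucleotide that ends viral RNA chains, ranged from -0.27 to 1.46 in liver, -0.48 to 0.82 in fat and -2.27 to 0.04 in muscle, and Ifit3 from 0.64 to 2.28, 0.79 to 2.02 and -0.20 to 0.79. Oasl2, of the oligoadenylate synthetase family, was highest in fat on every array, at 1.29 to 2.43, against -1.23 to 0.36 in liver and -2.35 to -0.55 in muscle. Ifit2 was also highest in fat, at -2.18 to -1.0, while its liver range of -3.98 to -2.0 enclosed the muscle range of -3.28 to -2.41.

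In the fit over all 42 arrays, 8 of the 9 genes were higher in liver than in muscle, by 1.16 (Oasl2) to 3.39 (Irf7) on the log2 scale, and Ifit2 did not pass (0.04, 95% interval -0.16 to 0.25, adjusted p = 0.698). Against fat, 7 were higher in liver, from 0.27 for Ifit3 (adjusted p = 0.0483) to 1.66 for Usp18, and Ifit2 and Oasl2 were lower, by -1.19 and -2.10. The Ifit3 call was lost when any of 22 of the 42 arrays was left out (highest adjusted p = 0.12) and with normexp background correction and quantile normalisation (0.087, adjusted p = 0.487), and it passed under 25 of 50 alternatives. All 9 were lower in muscle than in fat, by -0.95 (Ifit3) to -3.26 (Oasl2). These counts are to be read against tissues that differ in most genes: 40.5% of all genes were called higher in liver than in muscle, 44.2% higher and 42% lower in liver than in fat, and 43.7% lower in muscle than in fat. In such bulk tissue, fewer cells of a type and less RNA per cell cannot be told apart.

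**Figure D1:**
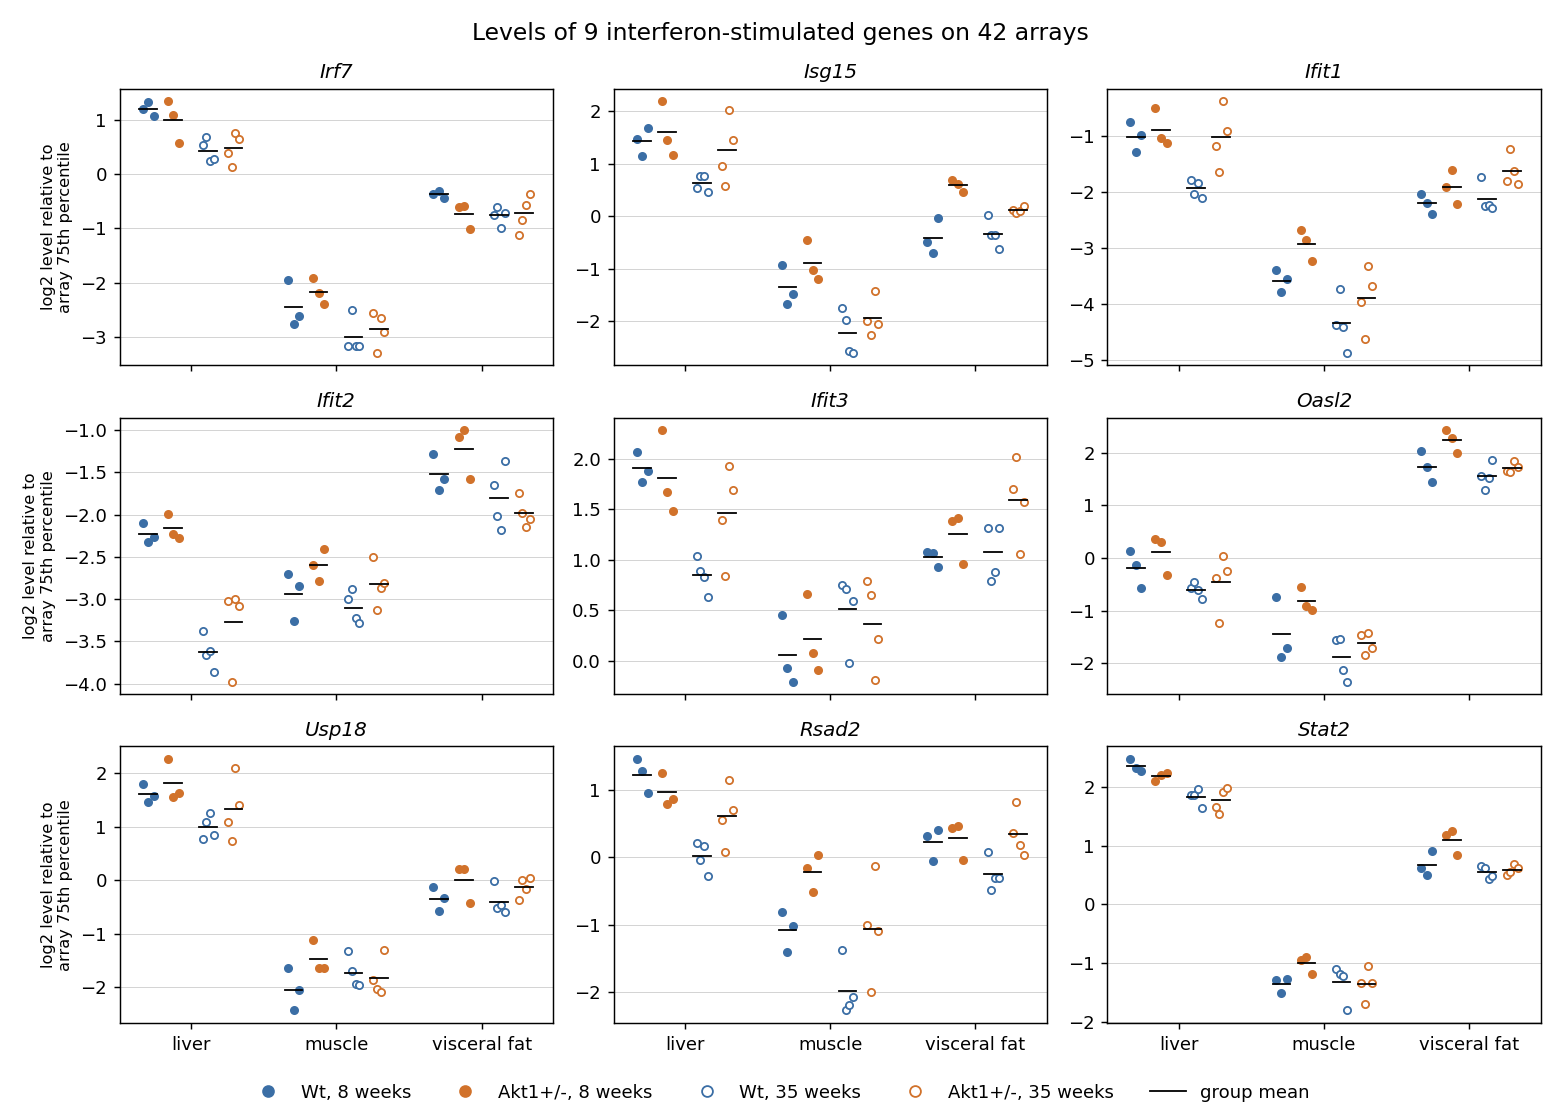
Level of each of the 9 interferon-stimulated genes on each of the 42 arrays (log2 of processed intensity relative to the array's 75th percentile), with circles for arrays, filled at 8 weeks and open at 35 weeks, blue for Wt and orange for Akt1+/-, and lines for group means. Irf7, Stat2 and Usp18 separate the 3 tissues without overlap, and Oasl2 is highest in fat (1.29 to 2.43). The share of all genes that do so is not given.

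Between 8 and 35 weeks the genes fell in liver, as an average over both genotypes. All 9 were lower at 35 weeks in liver by point estimate, 7 of the 9 passed the test at an adjusted p of 0.05 (background: 15.1% of all genes lower, 35.1% called either way), and the median change was -0.57 on the log2 scale, beside 0.017 over all 17557 genes tested. Ifit2 had the largest estimate, though with normexp background correction and quantile normalisation it was -0.58 (adjusted p = 2.61e-05), below Rsad2 in size (-0.69, adjusted p = 0.00177). It lay between -2.32 and -2.0 with a median of -2.24 on the 6 arrays at 8 weeks and between -3.98 and -3.00 with a median of -3.49 on the 8 arrays at 35 weeks, so that no array overlapped, and the fall was 2.38-fold (log2 change -1.25, SE 0.149, adjusted p = 9.35e-05). Stat2 also separated the ages completely, at 2.10 to 2.47 against 1.53 to 1.98 (-0.47, SE 0.0855, adjusted p = 0.00145). Such a complete separation downwards was seen in 3.37% of all genes.

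The other 5 that passed in liver overlapped between ages on 1 or more arrays. Irf7 had a median of 1.14 at 8 weeks (0.57 to 1.34) and 0.46 at 35 weeks (0.14 to 0.76), a change of -0.64 (SE 0.137, adjusted p = 0.0036). Rsad2 went from a median of 1.09 (0.78 to 1.46) to 0.19 (-0.27 to 1.14), a change of -0.78 (SE 0.157, adjusted p = 0.0026). Ifit3 went from 1.83 (1.48 to 2.28) to 0.97 (0.64 to 1.93), a change of -0.70 (SE 0.17, adjusted p = 0.00717). In each of the last 2 genes the high arrays at 35 weeks were Akt1+/- arrays. Ifit1 (-0.53, SE 0.178, adjusted p = 0.035) and Usp18 (-0.56, SE 0.193, adjusted p = 0.0396) passed by less.

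Isg15 and Oasl2 did not pass in liver, at -0.57 (SE 0.219, adjusted p = 0.059) and -0.50 (SE 0.191, adjusted p = 0.0605). Each passed without Akt1+/- replicate 3 at 8 weeks (adjusted p = 0.0375 for Isg15 and 0.0319 for Oasl2) or Akt1+/- replicate 3 at 35 weeks (adjusted p = 0.0137 and 0.0316), and Oasl2 also without Wt replicate 3 at 8 weeks (adjusted p = 0.041). All 9 genes had an unadjusted p under 0.05, as did 44.9% of all genes. The calls of Irf7, Ifit2, Ifit3, Rsad2 and Stat2 held with any single array left out. That of Ifit1 was lost without Wt replicates 1 or 3 or Akt1+/- replicate 1 at 8 weeks, or without Wt replicates 2 or 4 or Akt1+/- replicate 1 at 35 weeks (highest adjusted p = 0.092), and that of Usp18 with 10 of the 14 arrays left out in turn (highest adjusted p = 0.103) and with the replicate number as a block (adjusted p = 0.0681). Both calls were also lost with no filter (adjusted p = 0.0543 for Ifit1 and 0.0593 for Usp18), with slide as a random block (0.0647 and 0.072) and with the methods' test of both factors (0.0568 and 0.0641).

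In muscle 5 of the 9 genes fell between 8 and 35 weeks (background: 14.6% of all genes lower, 31.4% called either way), with a median change of -0.62 beside 0.0061 over all 17135 genes. Isg15 fell the most, from a median of -1.12 (-1.67 to -0.46) on the 6 arrays at 8 weeks to -2.03 (-2.61 to -1.43) on the 8 at 35 weeks, a 1.94-fold difference (-0.96, SE 0.195, adjusted p = 0.0033). Ifit1 went from -3.32 (-3.79 to -2.68) to -4.17 (-4.87 to -3.33), a change of -0.87 (SE 0.21, adjusted p = 0.00871). Rsad2 went from -0.66 (-1.40 to 0.04) to -1.68 (-2.27 to -0.12), a change of -0.87 (SE 0.251, adjusted p = 0.0202). Irf7 (-0.62, adjusted p = 0.0147) and Oasl2 (-0.62, adjusted p = 0.0278) passed as well. The ages overlapped in every one of these genes, and 4.5% of all genes separated completely downwards.

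Ifit2, Usp18 and Stat2 changed in muscle by -0.20, -0.02 and -0.16 (adjusted p = 0.232, 0.936 and 0.368), and Ifit3 by 0.30 (adjusted p = 0.259). The Oasl2 and Rsad2 calls in muscle were lost without Wt replicate 1 at 8 weeks (adjusted p = 0.0553 and 0.0509), which had the highest level of both genes in its group. The Oasl2 call was also lost without Akt1+/- replicate 1 at 8 weeks, Wt replicate 3 at 35 weeks or Akt1+/- replicate 2 at 35 weeks (highest adjusted p = 0.0654), and that of Rsad2 with the mean of its 3 probes (-0.56, adjusted p = 0.144). With normexp background correction and quantile normalisation the changes were smaller, at -0.27 for Ifit1 (adjusted p = 0.00671), -0.31 for Irf7 (adjusted p = 0.0125), -0.60 for Isg15 (adjusted p = 0.0025) and -0.41 for Oasl2 (adjusted p = 0.0165).

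In visceral fat 2 of the 9 genes fell with age (background: 9.32% lower), and the median change was -0.20 beside 0.011 over all 18359 genes. Stat2 went from a median of 0.88 (0.50 to 1.24) to 0.59 (0.43 to 0.68), a change of -0.32 (SE 0.0867, adjusted p = 0.0246, and 0.0687 with the replicate number as a block). Ifit2 went from -1.43 (-1.70 to -1.0) to -2.0 (-2.18 to -1.36), a change of -0.52 (SE 0.144, adjusted p = 0.0257). The arrays of both ages overlapped in each gene, and 1.98% of all genes separated completely downwards. The Stat2 call was lost without Wt replicate 3 or Akt1+/- replicates 1 or 2 at 8 weeks (highest adjusted p = 0.064), and that of Ifit2 without Wt replicate 1 or Akt1+/- replicates 1 or 2 at 8 weeks (highest adjusted p = 0.065). Oasl2 changed by -0.35 (adjusted p = 0.0534, and 0.0413 with the block) and passed without Wt or Akt1+/- replicate 3 at 8 weeks or Wt replicate 4 at 35 weeks (lowest adjusted p = 0.0256), and the other 6 lay between -0.21 (Rsad2) and 0.19 (Ifit3).

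The Ifit2 result in fat depended on the probe. Its second probe, at chr19:34639814-34639873, was well above background on all 14 fat arrays and rose with age, by 0.64 (adjusted p = 0.0126 over all probes), where the main probe fell by 0.52 (adjusted p = 0.0246 over all probes). In liver both Ifit2 probes fell, by 1.25 (adjusted p = 9.75e-05) and 0.72 (adjusted p = 0.00478), though the second was well above background on 7 of 14 arrays there. The other Rsad2 probes, at chr12:27036988-27040289 and chr12:27031827-27034865, changed with age by 0.14 and -0.94 in muscle (adjusted p = 0.788 and 0.0193) and by -0.31 and -0.55 in liver (adjusted p = 0.271 and 0.0712). In fat both fell, by 0.42 and 0.52 (adjusted p = 0.0292 and 0.0368), where the main Rsad2 probe changed by -0.21 (adjusted p = 0.33).

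The change with age was compared between tissues in the fit over all 42 arrays, a test added after the values above were known. Ifit2 fell further in liver than in muscle by 1.06 (adjusted p = 0.000455) and further than in fat by 0.73 (adjusted p = 0.0119). Ifit3 fell in liver while its estimates in muscle and fat were above 0, and its change differed by -1.01 from muscle (adjusted p = 0.00595) and by -0.89 from fat (adjusted p = 0.0147). Ifit1 changed differently in muscle and fat (-1.05, adjusted p = 0.00629). No other of the 27 differences for these genes passed, and the lowest adjusted p among them was 0.052, for Isg15 between muscle and fat. Over all 19855 genes 18.8% differed between liver and muscle, 16.2% between liver and fat and 16.4% between muscle and fat, so these 5 of 27 are close to that background.

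**Figure D2:**
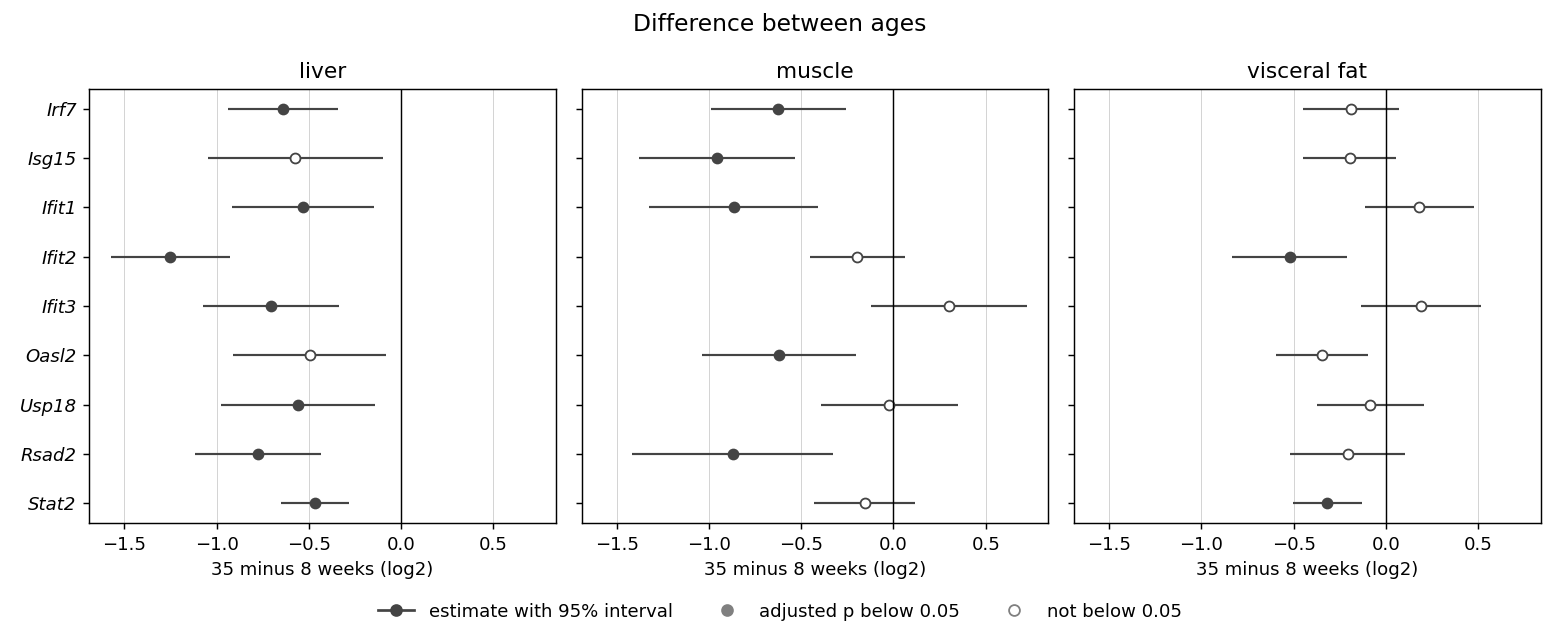
Change from 8 to 35 weeks (log2, 35 weeks minus 8 weeks over both genotypes) of each gene in liver, muscle and fat, with 95% intervals from limma and filled points for an adjusted p below 0.05. All 9 liver estimates lie below 0, from -1.25 (Ifit2) to -0.47 (Stat2), while 5 pass in muscle and 2 in fat.

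Markers of other cell types moved with age in the same arrays. As a yardstick, 20% of all liver genes were called higher at 35 weeks and 15.1% lower. The matching shares were 16.8% and 14.6% for muscle, 9.95% and 9.32% for fat. In liver 3 of 4 tested neutrophil markers rose (S100a8, S100a9 and Retnlg), 4 of 6 B cell markers rose, 3 of 8 macrophage markers rose and 1 fell, while no hepatocyte marker passed. The summed level of the 8 macrophage markers, as percent of the 75th percentile, was 8022 to 10135 in Wt and 11465 to 13861 in Akt1+/- livers at 8 weeks, and 12858 to 16368 and 10195 to 20900 at 35 weeks. In muscle 2 of 7 macrophage markers fell, 3 of 6 adipocyte markers and 4 of 6 fibre markers rose, and in fat 3 of 7 T cell markers and 2 of 6 muscle fibre markers rose and 2 of 7 macrophage markers fell. The 5 listed markers of plasmacytoid dendritic cells, which make much interferon, did not run alike. Siglech was well above background on 2 of 14 liver, 2 of 14 muscle and all 14 fat arrays. In the same order Ccr9 was so on 14, 10 and 14 arrays and Pacsin1 on 11, 14 and 13. Cox6a2 and Klk1 were so on all 14 arrays of each tissue. The part of these cell types in the change of the interferon-stimulated genes was not tested.

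In visceral fat Isg15 was higher in Akt1+/- mice at both ages, and it was the only one of the 9 genes to pass a genotype test when each tissue was fitted by itself. This rests on a single probe, whose printed position is on another chromosome than the gene. Whether that probe reads Isg15 alone was not tested. At 8 weeks Isg15 lay at -0.49, -0.71 and -0.03 in Wt and at 0.68, 0.62 and 0.46 in Akt1+/- fat. At 35 weeks it lay at 0.01, -0.37, -0.36 and -0.62 in Wt and at 0.11, 0.07, 0.10 and 0.19 in Akt1+/- fat. Every Akt1+/- array was above every Wt array at each age (background: 13% of all genes at 8 weeks and 3.91% at 35 weeks). Over both ages the difference was 0.72, or 1.65-fold (SE 0.116, 95% interval 0.47 to 0.97, adjusted p = 0.0214, background 0.229% of genes higher). At 8 weeks it was 1.0, or 1.99-fold (SE 0.175, adjusted p = 0.0381, background 0.899% higher and 1.84% either way). At 35 weeks it was 0.45 (SE 0.151, adjusted p = 0.215, background 1.72% either way), and the change of the difference with age did not pass (-0.55, adjusted p = 0.214).

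The Isg15 call in fat did not hold under every setting. With the replicate number as a block the adjusted p was 0.0702 over both ages and 0.0567 at 8 weeks. Over both ages it passed under 22 of 25 alternatives, and the other calls were lost without Wt replicate 2 at 8 weeks (0.65, adjusted p = 0.0634) or Wt replicate 2 at 35 weeks (0.72, adjusted p = 0.0505). At 8 weeks it was lost without Wt replicate 2 (0.85, adjusted p = 0.181), Akt1+/- replicates 1 (0.95, adjusted p = 0.0743), 2 (0.98, adjusted p = 0.0523) or 3 (1.06, adjusted p = 0.0871) at 8 weeks, and Akt1+/- replicate 3 at 35 weeks (adjusted p = 0.0525). At 8 weeks Wt replicates 1 and 2 (-0.49 and -0.71) lay on another slide, scanned on another day, than Wt replicate 3 (-0.03) and all Akt1+/- arrays. The difference at 8 weeks is thus partly mixed with slide and scan day. On the 1 slide that held both genotypes at 8 weeks the difference of 3 Akt1+/- arrays from 1 Wt array was 0.61. At 35 weeks the genotypes lay on different slides and were scanned on different days, which cannot be told apart from genotype.

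The other 8 genes did not pass for genotype in fat. Ifit1 (0.39), Ifit3 (0.37), Rsad2 (0.33), Oasl2 (0.33), Usp18 (0.32), Stat2 (0.23) and Ifit2 (0.06) had positive estimates over both ages and Irf7 a negative one (-0.16), with adjusted p from 0.161 to 0.847. The second Ifit2 probe was at 0.45 over both ages and 0.87 at 8 weeks (limma adjusted p = 0.163 and 0.0646 over all probes). The main Ifit2 probe was at 0.30 at 8 weeks. The other Rsad2 probes were at 0.19 and 0.16 over both ages (adjusted p = 0.404 and 0.609 over all probes). Stat2 at 8 weeks was at 0.41 (adjusted p = 0.0954) and passed without Wt replicate 3 (0.53, adjusted p = 0.0402). Counting Isg15, 7 of the 9 had an unadjusted p under 0.05 by limma (background 19.3%), against 3 at 8 weeks (background 24.1%) and 4 at 35 weeks (background 12.3%), and the median over the 9 was 0.33 beside -0.0087 over all genes. Irf7 at 8 weeks was at -0.36, -0.31 and -0.43 in Wt and at -0.60, -0.59 and -1.01 in Akt1+/- fat, so it separated the genotypes in the direction opposite to Isg15 (background: 14.1% of genes below). Its difference of -0.36 did not pass (adjusted p = 0.24), and at 35 weeks it was 0.04. Beside these values are the summed neutrophil markers, as percent of the 75th percentile. At 8 weeks they were 89.2 to 102 in Wt and 238 to 951 in Akt1+/- fat. At 35 weeks they overlapped, at 125 to 272 in Wt and 158 to 241 in Akt1+/- fat. The mesothelial marker Krt19 was higher by 0.55 (adjusted p = 0.0462) in Akt1+/- fat over both ages. The summed adipocyte markers, on the same scale, were 134410 to 181540 in Wt and 143350 to 157010 in Akt1+/- fat at 8 weeks and 159980 to 186020 and 129670 to 154460 at 35 weeks, without overlap at the second age. At 8 weeks the summed ovarian markers were 79.7 to 98.8 in Wt and 94.7 to 107 in Akt1+/- fat. At 35 weeks they were 114 to 131 and 91.0 to 106. The same ovarian sum reached 1970 in liver and 263 in muscle, above every fat array. The summed hepatocyte markers were lower on every Akt1+/- fat array at each age. At 8 weeks they were 9310 to 11793 in Wt against 8228 to 8589, and at 35 weeks 10853 to 13172 against 7994 to 9577. That sum follows its brightest genes, as the mean log2 level of the 4 hepatocyte genes in fat was -2.0 to 0.16. Ttr was well above background on 0 and Apoa1 on 10 of 14 fat arrays. The part of these cell types in the Isg15 difference was not tested.

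In liver none of the 9 genes passed for genotype over both ages (background: 6.27% called either way, 3.74% higher and 2.53% lower). By limma 1 of the 9 had an unadjusted p under 0.05 (background 26.4%), Ifit1 at 0.52 (adjusted p = 0.0944). Estimates were positive for 7 genes and negative for Irf7 and Stat2, with a median of 0.22 beside 0.018 over all genes. Ifit2 turned to -0.01 with normexp and quantile normalisation. Scaling to the array median moved the median of all liver genes to -0.11 and that of the 9 genes to 0.094, and kept the sign of every one. At 8 weeks none of the 9 passed (background 2.12% either way, 1.18% higher; unadjusted 0 of 9 by limma, background 20.9%) and 5 were positive. Stat2, at 2.47, 2.32 and 2.28 in Wt against 2.10, 2.20 and 2.23 in Akt1+/- liver, was lower on every Akt1+/- array (background 14%).

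At 35 weeks 8 of the 9 liver estimates were positive, with a median of 0.36 beside 0.017 over all genes, and again none passed (background 3.54% either way, 3.33% higher). Scaling to the array median gave 0.19 for the 9 genes and -0.15 for all genes, and turned Irf7 (-0.12) and Oasl2 (-0.025) negative. Ifit1 lay at -1.78, -2.03, -1.84 and -2.10 in Wt and at -1.18, -1.64, -0.39 and -0.91 in Akt1+/- liver, so every Akt1+/- array was higher (background 9.07%). The difference was 0.91, or 1.88-fold (SE 0.233, 95% interval 0.40 to 1.42, adjusted p = 0.0524, and 0.0477 with the replicate number as a block). It passed under 5 of 26 alternatives, which ranged from 0.54 with normexp and quantile normalisation (adjusted p = 0.113) to 1.11, and the adjusted p was 0.137 with slide as a random block. Rsad2 lay at 0.21, -0.05, 0.17 and -0.27 in Wt and at 0.55, 0.08, 1.14 and 0.70 in Akt1+/- liver (0.60, adjusted p = 0.141). The Akt1+/- array was higher in 4 of 4 pairs of the same number for Rsad2 and Ifit1. It was so in 1 of 4 for Stat2, 2 of 4 for Irf7 and 3 of 4 for the rest of the 9, and the share over all genes is not given. Isg15 lay at 0.53, 0.77, 0.76 and 0.46 against 0.96, 0.57, 2.03 and 1.44 (0.62, adjusted p = 0.295). In Rsad2 and Isg15 Akt1+/- replicate 2 fell within the Wt range and replicate 3 was the highest array. The other Rsad2 probes differed by 0.97 and 0.88 (limma adjusted p = 0.0836 and 0.148 over all probes). The second Ifit2 probe, well above background on 3 of these 8 arrays, differed by 0.58 (adjusted p = 0.192), and the main one by 0.36. Of the 9 genes 3 had an unadjusted p under 0.05 (background 17%). Of 4 neutrophil markers tested 3 were higher in Akt1+/- liver over both ages (background 3.74% higher). As percent of the 75th percentile, the 4 summed to 94.3 to 114 in Wt and 278 to 726 in Akt1+/- liver at 8 weeks. At 35 weeks they summed to 244 to 639 in Wt and 360 to 1003 in Akt1+/- liver. The part of neutrophils in these values was not tested. The genotypes lay on different slides in liver, which cannot be told apart from genotype.

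The result in liver at 35 weeks changed when single arrays were left out. Akt1+/- replicate 2 at 35 weeks was below its group mean in 9 of the 9 genes, and without it 4 genes passed as higher in Akt1+/- liver at 35 weeks: Ifit1 (1.11, adjusted p = 0.0245), Ifit2 (0.59, adjusted p = 0.0313), Ifit3 (0.82, adjusted p = 0.0471) and Rsad2 (0.78, adjusted p = 0.0495). Over both ages 2 then passed, Ifit1 (0.62, adjusted p = 0.0364) and Ifit2 (0.33, adjusted p = 0.0464). Without Akt1+/- replicate 1 at 8 weeks Ifit1 alone passed at 35 weeks (adjusted p = 0.0477). Without both replicates 2 and 3 of the Akt1+/- livers at 35 weeks, a choice made after their values were seen, none passed for genotype, and 8 of the 9 fell with age. Leaving out replicate 2, which is low in all 9 genes, by itself raises their Akt1+/- mean. The shares of all genes called in these fits are not given here, so these counts have no background.

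In muscle none of the 9 genes, and none of the 17135 genes tested, passed for genotype over both ages (background 0%). By limma's unadjusted p under 0.05, 3161 genes (18.4%) and 4 of the 9 passed, and all 9 estimates were positive, with a median of 0.31 beside -0.0031 over all genes, though that of Ifit3 (0.01) turned to -0.020 with normexp and quantile normalisation, -0.082 with median scaling and -0.013 with slide as a random block. Rsad2 had the largest, 0.89 (SE 0.251, 95% interval 0.34 to 1.44, adjusted p = 0.138, and 0.0197 in 1 fit over all 42 arrays). At 8 weeks it lay at -0.81, -1.40 and -1.02 in Wt and at -0.16, -0.51 and 0.04 in Akt1+/- muscle, without overlap. At 35 weeks it lay at -1.37, -2.27, -2.18 and -2.07 against -1.01, -1.99, -0.12 and -1.09, with overlap. There the Akt1+/- array was higher in 4 of 4 pairs of the same number for Rsad2. It was so in 1 of 4 for Ifit3 and Usp18, 2 of 4 for Isg15 and Stat2 and 3 of 4 for the rest of the 9. The share over all genes is not given. The estimates of Ifit1, Oasl2, Isg15 and Ifit2 were 0.55, 0.45, 0.37 and 0.31 (adjusted p = 0.211, 0.246, 0.325 and 0.217), and that of Ifit1 was 0.13 with normexp and quantile normalisation (adjusted p = 0.297).

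At 8 weeks Ifit1, Rsad2 and Stat2 were higher on every Akt1+/- muscle array than on every Wt array (background 9.64%), and at 35 weeks none of the 9 was (background 3.44%). No gene of the 9 passed at either age, with 2 of 9 at an unadjusted p under 0.05 by limma at 8 weeks (background 15.8%) and 1 of 9 at 35 weeks (background 9.15%). On the 1 slide that held both genotypes at 8 weeks, the single Akt1+/- array was above the mean of the 3 Wt arrays in all 9 genes, by 0.33 (Ifit2) to 0.93 (Usp18). All 7 macrophage markers tested had positive genotype estimates in muscle (median 0.50), as did all 4 neutrophil markers (median 2.49), none of which passed. The share of all muscle genes with positive estimates is not given here. Of these markers S100a8, Retnlg and Itgam were well above background on 7, 6 and 4 of the 14 muscle arrays. The summed neutrophil level was 24.3 to 56.2 in Wt and 71.7 to 1166 in Akt1+/- muscle over both ages, as percent of the 75th percentile. The part of these cells in the estimates of the interferon-stimulated genes was not tested.

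The change of the genotype difference with age passed for none of the 9 genes in any tissue (background 0.558%, 0% and 1.64% in liver, muscle and fat, the liver share being 0.41% higher and 0.148% lower), and 2, 0 and 1 of them had an unadjusted p under 0.05 by limma (background 13.9%, 8.37% and 20.1%). In liver 8 of the 9 estimates were positive, meaning a smaller fall with age in Akt1+/- liver, and 1 was negative. The largest were Rsad2 (0.87), Ifit1 (0.78) and Ifit3 (0.71), with limma adjusted p = 0.241, 0.351 and 0.382. The genotype difference itself did not differ between any pair of tissues for any of the 9, with lowest adjusted p of 0.193, 0.166 and 0.341 (background 0.896%, 4.28% and 0.73%).

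**Figure D3:**
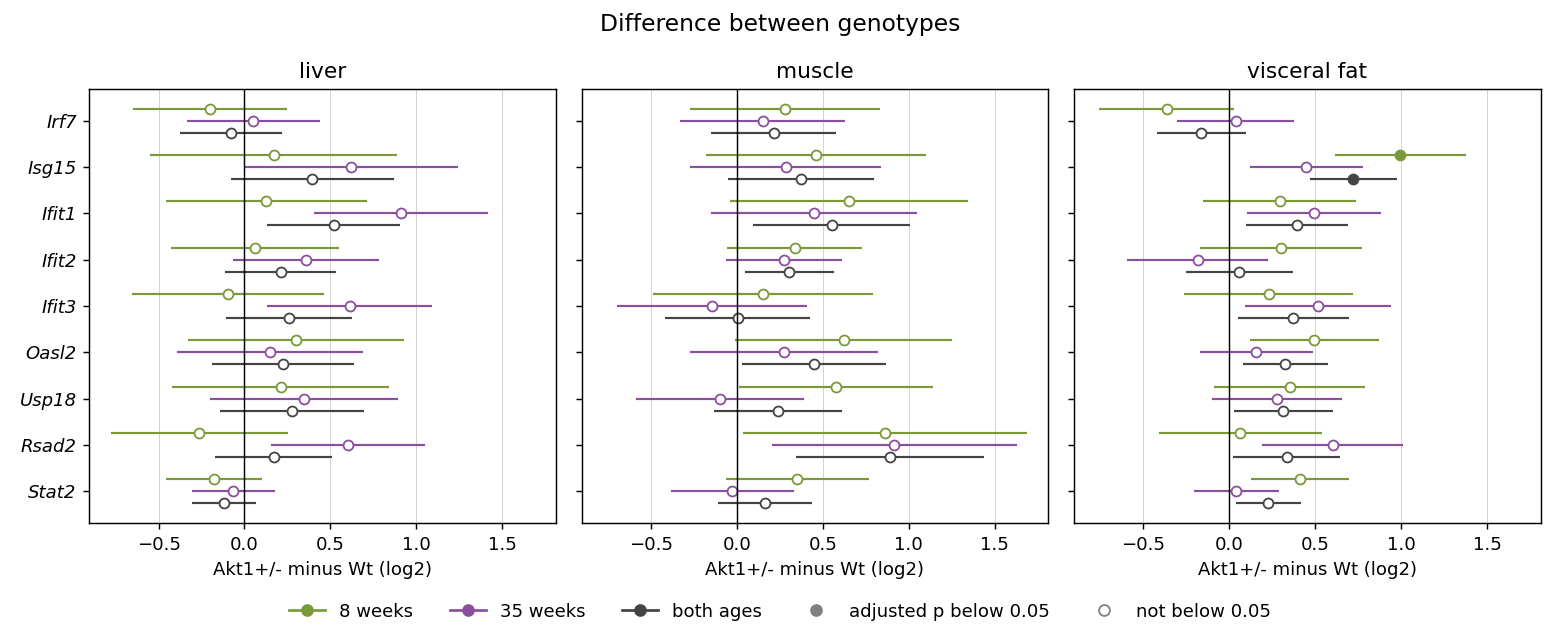
Genotype difference (log2, Akt1+/- minus Wt) of each gene at 8 weeks, at 35 weeks and over both ages in liver, muscle and fat, with 95% intervals from limma and filled points for an adjusted p below 0.05. The 2 filled points are Isg15 in fat at 8 weeks (1.0) and over both ages (0.72), and the Ifit1 interval in liver at 35 weeks (0.40 to 1.42) lies above 0 without passing after adjustment.

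Within groups the 9 genes moved together from array to array, most of all in liver. After each group mean was subtracted, all 36 pairs of genes correlated positively over the 14 liver arrays (median r = 0.75, range 0.35 to 0.95), 33 of 36 over the muscle arrays (median 0.50) and 32 of 36 over the fat arrays (median 0.34). These are descriptions over arrays that share slides, labelling and scaling. The same values over pairs of all genes are not given, so how common such correlation is cannot be read from them. Values without the liver arrays named next, which lay far from their group mean, are not given either. Averaged over the 9 genes, the widest spread was among the Akt1+/- livers at 35 weeks, where replicate 3 lay 0.48 above the group mean (9 of 9 above) and replicate 2 lay 0.57 below it (0 of 9 above), while replicates 1 and 4 lay at -0.08 and 0.16.

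Other arrays stood apart less. Akt1+/- liver replicate 1 at 8 weeks lay 0.32 above its group mean, Wt muscle replicate 1 at 8 weeks 0.35 above (9 of 9), Akt1+/- muscle replicate 2 at 35 weeks lay at -0.36 and Akt1+/- fat replicate 3 at 8 weeks at -0.29 (0 of 9). In the same livers at 35 weeks, replicates 2 and 3 deviated by -0.34 and 0.30 over the other type I interferon-stimulated genes and by -0.32 and 0.25 over the interferon gamma-responsive genes. Marker lists ran differently there, at -0.04 and -0.11 for macrophages, 0.38 and -0.35 for neutrophils, 0.35 and -0.25 for T cells and 0.19 and -0.34 for B cells.

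**Figure D4:**
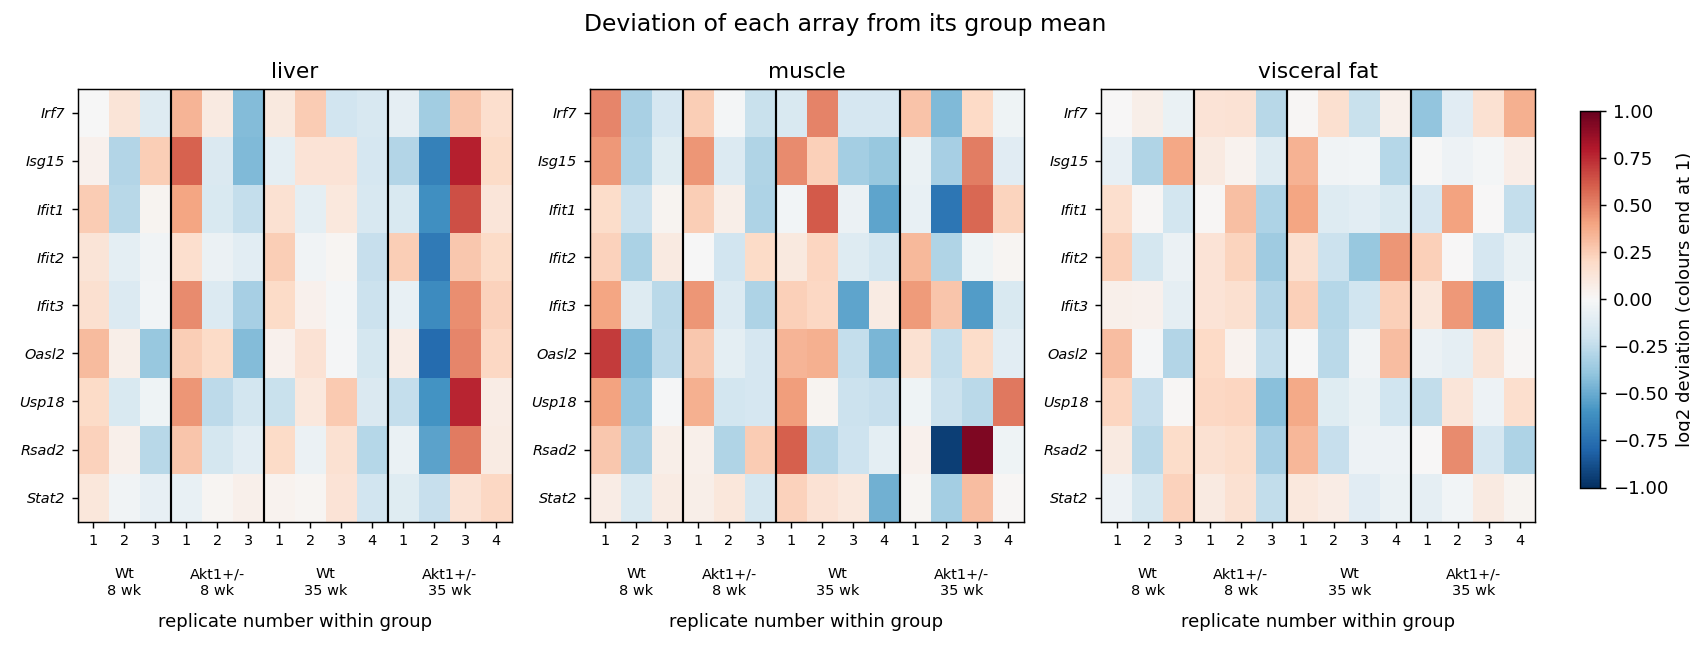
Deviation of each gene from its group mean on each array (log2, in colours that end at 1 in either direction), with arrays in columns by tissue and group and genes in rows. Among Akt1+/- livers at 35 weeks all 9 genes lie above the mean in replicate 3 (mean deviation 0.48) and below it in replicate 2 (-0.57).

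The genes most like the 9 in this array-to-array pattern were looked for among all genes, by the correlation with the mean deviation of the 9. In liver they were NAP007796-001 (r = 0.95, rho = 0.93), Ifih1 (r = 0.93, rho = 0.85), Irf9 (r = 0.93, rho = 0.89), Zbp1 (r = 0.92, rho = 0.75) and Cmpk2 (r = 0.91, rho = 0.85). With the 2 arrays farthest from the middle left out, Akt1+/- replicates 2 and 3 at 35 weeks, r was 0.75 to 0.93. In muscle they were Mfsd10 (r = 0.93), Fbxo39 (r = 0.91), H2-Eb1 (r = 0.90), Rtp4 (r = 0.90) and Gbp2 (r = 0.90), and in fat Psmb8 (r = 0.94), Fbxo10 (r = 0.90), Haus5 (r = 0.90), NAP046281-1 (r = 0.89) and Gm11992 (r = 0.88), each over 14 arrays. Of these 15 genes, Ifih1, Irf9, Zbp1, Cmpk2, Rtp4, Gbp2 and Psmb8 were on the lists of interferon genes.

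The wider set of interferon genes moved with age in both directions. Beside these counts, 15.1% of all genes fell and 20% rose in liver. In muscle the shares were 14.6% and 16.8%, and in fat 9.32% and 9.95%. Of 44 other type I interferon-stimulated genes tested in liver 11 fell and 3 rose (median -0.15), led by Ifi44 (-1.45), Slfn5 (1.19), Ifit3b (-0.94) and Oas3 (-0.85). Ifit3b, the neighbour that the Ifit3 probe may also read, rose in muscle (0.71), where Ifit3 was at 0.30. In muscle 15 of 43 of these genes fell and 3 rose (median -0.24), led by Ifi44 (-1.81) and Gbp4 (-0.96). In fat 2 of 46 fell and 5 rose, led by Cxcl10, a chemokine for T cells, at 2.83. Of the interferon gamma-responsive genes 7 of 21 fell and 1 rose in liver, where the tryptophan-degrading enzyme Ido1 rose by 2.63 and the GTPase Gbp6 changed by -0.99. In muscle 4 of 21 fell and 2 rose, led by Iigp1 (-1.11), and in fat none of 20 passed.

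Upstream genes are set beside backgrounds of 35.1%, 31.4% and 19.3% of all genes called either way in liver, muscle and fat. Among receptors, kinases and partner factors, 3 of 16 fell and 2 rose in liver (among them Jak1 0.38, Jak2 -0.36 and Tyk2 -0.28), 3 of 16 fell in muscle (Irf9 -0.48 the largest) and 3 of 17 fell and 2 rose in fat (Ifnlr1 0.96 the largest). Among nucleic acid sensors and adaptors 3 of 17 fell in liver (Trim25 -0.52), 2 of 15 fell and 2 rose in muscle, and 3 of 17 fell in fat (Tbk1 -0.39). Of negative regulators 2 of 12 fell in liver, 1 fell and 2 rose in muscle and 1 rose in fat. Of 16 ligand genes listed 12 had a probe by that name, and 4, 3 and 4 were bright enough to test in liver, muscle and fat. Ifna9 rose by 1.29 in liver (adjusted p = 0.00386) and 1.48 in muscle (adjusted p = 0.000137) and fell by 0.57 in fat (adjusted p = 0.00414). Ifna genes are near-identical copies, so which of them such a probe reads is uncertain.

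For genotype the backgrounds were 3.74% of all genes higher in Akt1+/- liver, 0% in muscle and 0.229% in fat. In liver Adar (0.37, adjusted p = 0.0248) was the 1 of 44 other type I genes to pass, although 43 of the 44 had positive estimates (median 0.22, where 53.1% of all genes were positive). Of 21 interferon gamma-responsive genes Cxcl11 (0.63), Igtp (0.62) and Tap1 (0.57) passed as higher in Akt1+/- liver, and the negative regulator Ptpn2 was lower (-0.24). None passed in muscle, and in fat Oasl1 (0.81, adjusted p = 0.0477) was the 1 of 46 that did.

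**Figure D5:**
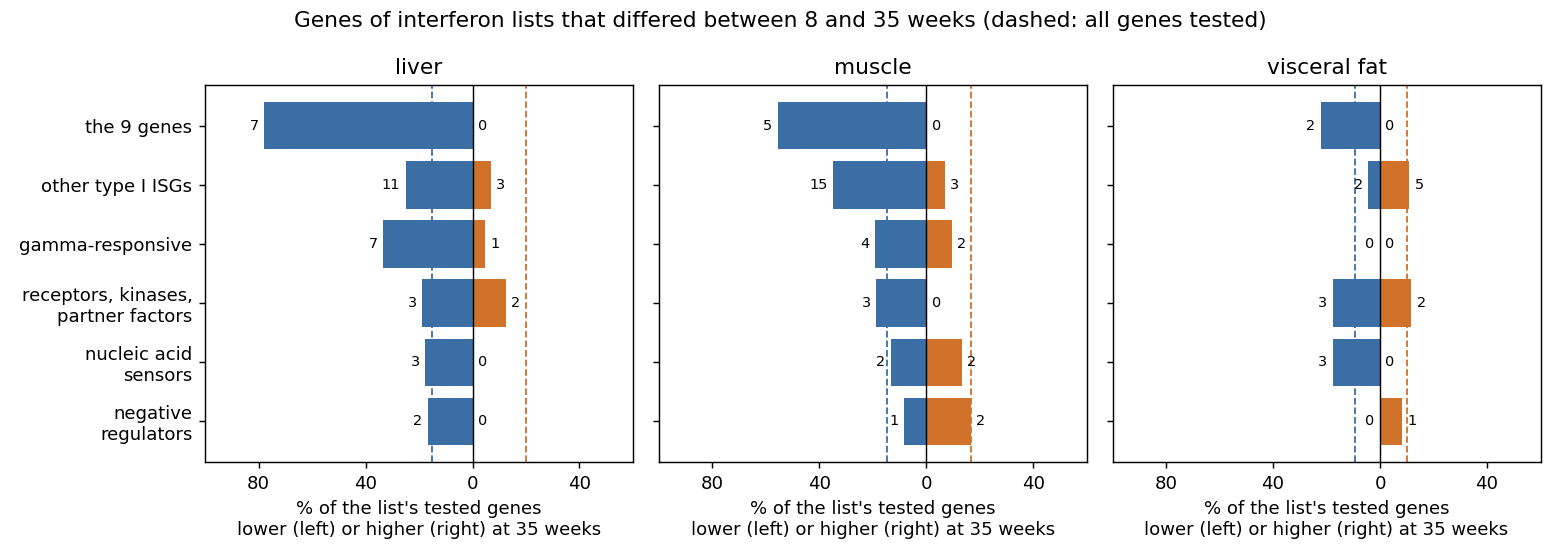
Share of each list's tested genes that were lower (bars to the left) or higher (bars to the right) at 35 than at 8 weeks by limma, in percent, with the number of genes beside each bar and dashed lines for the shares over all genes tested. To the left the bars of the 9 genes hold 7 (liver), 5 (muscle) and 2 (fat) of them, where the dashed lines stand at 15.1%, 14.6% and 9.32%.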

How the data were processed

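RNA from 42 tissue samples was labelled with Cy3 and hybridised to one-colour Agilent mouse arrays with 41174 non-control probes. The authors deposited scanner output with a processed intensity, a mean and background intensity and flags per spot (Feature Extraction 9.5.3.1 in the file headers, 9.1 in the submitters' notes), and a table of log2 values, also deposited by the authors, whose columns have medians of -3.69 to -3.27 and matched the intensities scaled to the 75th percentile (highest SD of the difference 0.0070).

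Here log2 of the processed intensity minus each array's 75th percentile over non-control probes was used. Control spots and spots flagged as outliers were left out, spots of a probe averaged, and a probe was kept if at least 3 arrays of any 1 group had it well above background. The brightest probe stood for a gene, and gene names were updated through RefSeq. limma 3.58.1 (R 4.3.3) was fitted per tissue on 14 arrays with 1 mean per group, and over 42 arrays for tissues, with Benjamini-Hochberg adjustment over all genes and a threshold of 0.05. All 9 genes were named, up to 4 genes per list by size of change, and 5 genes per tissue by likeness. Members and lists were chosen with earlier results of these data known. On simulated data with 200 of the tested genes changed by 1 log2 unit for genotype, 85.5%, 85% and 85.5% were recovered in liver, muscle and fat. The precision is limited by the number of arrays. Alternatives tried were normexp (offset 50) with quantile normalisation, median scaling, the authors' log2 values, filters, the mean of all probes, slide and replicate blocks (the last also at 35 weeks alone, added after seeing the data), the methods' test of both factors, 1 fit over all arrays and each array left out. Promoters were read with Python 3.11.15.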

Additional observations from a re-analysis of the deposited data

Results flagged for a closer look

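Of 54 groups of 4 arrays tested for a lone array, 3 held one that lay apart from the others, and chance marks about 1 in 20 groups. Ifit2 was at -3.98 in Akt1+/- liver replicate 2 at 35 weeks, where the other 3 arrays lay at -3.08 to -3.00. Irf7 was at -2.50 in Wt muscle replicate 2 at 35 weeks, where the others lay at -3.17 to -3.15. Ifit1 was at -1.73 in Wt fat replicate 1 at 35 weeks, where the others lay at -2.28 to -2.23.

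The change with age differed between tissues for 3 of the genes, by a test of the difference in the limma fit over all arrays that was added after the values were seen. For Ifit2 it was -1.06 between liver and muscle (adjusted p = 0.000455) and -0.73 between liver and fat (adjusted p = 0.0119). For Ifit3 it was -1.01 between liver and muscle (adjusted p = 0.00595) and -0.89 between liver and fat (adjusted p = 0.0147). For Ifit1 it was -1.05 between muscle and fat (adjusted p = 0.00629). Over all genes 18.8% differed between liver and muscle, 16.2% between liver and fat and 16.4% between muscle and fat. Age and scan day cannot be told apart in any of the tissues.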

How the results depend on the processing

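Of 382 counts of genes called under settings other than a left-out array, 373 stayed within 1.5 times their main value, and of 672 with an array left out 657 did. Many of these were counts of 0 that stayed at 0, and a fall of the liver age count from 7 to 5 stays within that limit. The share that stayed therefore does not measure how firm the calls are. The 9 that moved were as follows. With replicates as a block, either at both ages or at 35 weeks alone, genes higher in Akt1+/- liver at 35 weeks went from 0 to 1 (Ifit1, adjusted p = 0.0477 and 0.0441). With the block at both ages, genes rising with age in muscle went from 0 to 1 (Ifit3, adjusted p = 0.0474), and genes higher in Akt1+/- fat from 1 to 0 at 8 weeks and over both ages. With 1 fit over 42 arrays 1 gene was higher in Akt1+/- liver at 35 weeks and 1 in Akt1+/- muscle over both ages (Rsad2, 0.89, adjusted p = 0.0197). With no filter 0 were higher in Akt1+/- fat at 8 weeks (Isg15, adjusted p = 0.07), and with the mean of all probes 1 fell with age in fat, where Ifit2 turned from -0.52 to 0.061 (adjusted p = 0.796). For each of these the cause was not tested, except that the probe mean joins Ifit2 probes of opposite sign.

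With each array left out in turn, genes higher in Akt1+/- liver numbered 0 to 4 at 35 weeks and 0 to 2 over both ages, those falling with age 5 to 9 in liver, 3 to 5 in muscle and 0 to 3 in fat, and those higher in Akt1+/- fat 0 to 1 over both ages and 0 to 2 at 8 weeks. The shares over all genes with an array left out are not given. The 7 genes falling with age in liver were 5 (Irf7, Stat2, Ifit2, Ifit3 and Rsad2) with slide as a random block, with no filter and with the methods' test of both factors, 6 with the replicate block and 9 with 1 fit over 42 arrays or with median scaling. Median scaling moved the median change of all liver genes with age from 0.017 to -0.18 and the share of calls that were higher from 57% to 24.5%, and for genotype that share from 59.6% to 15.7% over both ages, 55.9% to 30.3% at 8 weeks, 93.9% to 34% at 35 weeks and 73.5% to 62% for the interaction. In muscle the share with age went from 53.5% to 42.4%.

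Arrays with the same replicate number at 35 weeks deviated together (12 of 12 pairs between r = 0.10 and 0.53, each best with its own number, which is also the position on the slide), and those at 8 weeks did not (9 pairs, r = -0.19 to 0.07), so the numbers were taken as pairs at 35 weeks alone, in a block added after seeing the data, under which no other call for genotype changed. Of 1719 values of single genes under other settings 15 lost a call, 16 gained one and 1 reversed, the one given above. Of all values under these settings 11 changed sign, that one and 10 of estimates that passed under neither setting, and with an array left out 62 did, none of a called gene.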
